A study of Mus musculus with 9 samples.

Results

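Chromatin accessibility was described for the autosomal windows of the mouse genome whose GpC methylation was high on average over all 9 NOMe-seq libraries of the study. A window belonged to this set when it lay on chromosomes 1 to 19, had a value in every library, and had an unweighted mean over the 9 libraries of 25% or more. The rule found 5356 of 786533 such windows (0.681%), of 833294 deposited in all. They are called high-mean windows here. The 9-library mean chose them and is given as a description without a test.

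In NOMe-seq, fixed nuclei are treated with a methyltransferase that marks cytosine in GpC dinucleotides where no nucleosome or other protein covers the DNA, and bisulfite sequencing reads the marks. A higher percentage of GpC methylation therefore stands for more accessible chromatin. In mammalian cells the best known sites of lasting accessibility are promoters with many CpG dinucleotides (CpG islands), which drive genes used by most cells and keep a nucleosome-depleted stretch around the start of transcription. Enhancers and binding sites of insulator proteins are other known open sites.

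The libraries came from female FVB/CAST F1 mouse embryonic stem cells (mESCs), derived from FVB/NJ dams and CAST/EiJ sires, so both parental genomes were present in every library. There was 1 library of undifferentiated cells in 2i medium at day 0, and 1 each at days 4, 5, 6 and 7 of differentiation in DME HiHi medium from cells carrying the non-silencing hairpin (Nons) and from cells carrying hairpin Smarcc1.6 against Smarcc1, the gene of a core BAF protein; the BAF complex moves and evicts nucleosomes. Hairpins were delivered by viral transduction on day 2 and cells were selected with puromycin on day 3, so the day 0 cells differed from all others in medium, transduction and selection as well as in time. No condition was replicated, no read depth was given with the percentages, and differences between libraries describe these libraries only. Library medians over all autosomal windows ran from 6.41% in Nons at day 7 to 21.2% in Nons at day 5, and the pair of day 5 libraries were the highest and the pair of day 7 libraries the lowest, so these stood apart from the rest before any choice of windows.

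The bases before the starts that stood highest in all libraries were searched for known promoter motifs. Each sequence shown held a GC box except that of Map3k3, which held CCAAT boxes only. These starts were the protein-coding ones whose lowest rank within any library was highest. The letters are reference sequence and hold no library data, and a part of the sequence in the level was not tested. The 150 bases before each start were taken from RefSeq (GRCm38.p6), 5′ to 3′ on the strand of the gene. Capitals mark matches on either strand to the GC box (GGGCGG), the CCAAT box (CCAAT) or the Nrf1 motif (GCATGCGC), where neighbouring matches may overlap.
Sp1, chr15:102406166-102406315, + strand: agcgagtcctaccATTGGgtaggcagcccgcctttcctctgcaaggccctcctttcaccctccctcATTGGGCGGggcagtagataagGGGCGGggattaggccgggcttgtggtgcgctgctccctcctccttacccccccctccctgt
Nmt2, chr2:3284062-3284211, + strand: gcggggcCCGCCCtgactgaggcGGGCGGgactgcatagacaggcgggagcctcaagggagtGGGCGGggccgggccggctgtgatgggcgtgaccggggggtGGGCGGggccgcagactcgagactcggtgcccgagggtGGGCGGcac
Jkamp, chr12:72085689-72085838, + strand: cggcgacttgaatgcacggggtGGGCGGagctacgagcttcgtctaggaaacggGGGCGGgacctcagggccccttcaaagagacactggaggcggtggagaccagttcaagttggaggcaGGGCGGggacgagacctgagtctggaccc
L3hypdh, chr12:72085314-72085463, - strand: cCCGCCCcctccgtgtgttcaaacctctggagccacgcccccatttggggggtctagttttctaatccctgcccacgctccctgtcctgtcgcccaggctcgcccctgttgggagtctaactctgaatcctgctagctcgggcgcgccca
Map3k3, chr11:106084437-106084586, + strand: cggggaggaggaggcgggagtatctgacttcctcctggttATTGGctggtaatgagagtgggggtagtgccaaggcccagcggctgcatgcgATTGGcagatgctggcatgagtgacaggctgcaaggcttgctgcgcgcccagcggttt
Map2k2, chr10:81105765-81105914, + strand: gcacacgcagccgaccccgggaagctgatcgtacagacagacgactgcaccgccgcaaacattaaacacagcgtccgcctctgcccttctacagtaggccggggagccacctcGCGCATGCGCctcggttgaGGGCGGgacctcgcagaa

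The window of Sp1, the transcription factor that binds GC boxes, covered its start and first coding exon (chromosome 15, 102404548 to 102406659, mm10). The undifferentiated cells had 63.0% GpC methylation there. Nons had 39.1%, 59.4%, 38.8% and 40.7% at days 4, 5, 6 and 7, and the Smarcc1 knockdown had 40.6%, 48.8%, 42.1% and 71.9%. Its lowest percentile among the autosomal windows of any 1 library was 99.7, and no other protein-coding start reached so high a lowest rank.

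The other windows of this kind held the starts of Nmt2, an N-myristoyltransferase gene, of Map3k3 and Map2k2, which encode kinases of mitogen-activated cascades, of Crem, a cAMP-responsive transcription factor gene, of Fam222a, and of the divergent pair Jkamp and L3hypdh. Their lowest percentile within any library lay between 98.1 and 99. Nmt2 ranged from 28.6% to 64.7% over the 9 libraries with a mean of 46.8%. Map2k2 ranged from 20.4% to 54.2% with a median of 42.1%. Crem ranged from 21.9% to 56.0% with a median of 34.5%. The RefSeq entry for Fam222a was not matched, and the sequence of Crem is not shown.

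Among the other protein-coding starts of highest mean, Vcp, which encodes a protein-unfolding ATPase, had a mean of 47.6% but 9.62% in Nons at day 7. Fbxo11, a ubiquitin ligase subunit gene, had a mean of 47.4% and was at 0% in Nons at day 7, where its other libraries lay between 35.4% and 73.7%. Zfpm1, a cofactor gene of GATA factors, ranged from 20% to 76.9%. The divergent pair Zbtb1 and Zbtb25, both zinc-finger genes, ranged from 28.2% to 80%, Hdgfl2 from 25.9% to 61.7% and Mtmr12 from 15.6% to 67%. At these starts a high mean went with a wide range between libraries.

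The label "constitutively open" was set beside the separate libraries. Their values chose the windows, so the counts are a description and the contrast with other windows is partly set by the rule. Of the 5356 windows, 3042 (56.8%) lay above the autosomal median of the library in all 9, against 0.929% of the other autosomal windows. Another 1807 did so in 8 libraries, and 507 in 7 or fewer. Only 307 (5.73%) lay above the 90th percentile in all 9 libraries, and the median window did so in 7. The mean of 2638 windows (49.3%) fell under 25% when its own highest library was left out. A value of 0% in some library was seen in 271 windows (5.06%), a smaller share than the 10.97% of all autosomal windows. The rule therefore chose windows that were high in most libraries, and for 5.73% of them the data showed a high rank in every library.

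The windows followed the level of each library. Their median was 26% at day 0 (SD over the 19 autosomes 1.05). In Nons it was 30.3%, 43.0%, 25.4% and 15.8% at days 4, 5, 6 and 7, with SDs over autosomes of 1.13, 0.917, 0.912 and 0.960. In the knockdown it was 25%, 38.4%, 27.0% and 18.6%, with SDs of 0.686, 0.659, 0.657 and 0.822. The ratio to the median of all autosomal windows of the same library lay between 1.90 in the knockdown at day 5 and 2.60 in the knockdown at day 7. A day 5 library was the highest of the 9 for 65.1% of the high-mean windows and for 77.2% of all autosomal windows.

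Because those levels entered the choice, each library was also read at windows chosen on the mean of the other 8. At day 0 these 5905 windows had a median of 21.7% (SD over autosomes 0.954), against 11.3% for all autosomal windows. In Nons the medians were 28.2%, 41.7%, 21.3% and 12.8% at days 4, 5, 6 and 7. In the knockdown they were 22.1%, 36.7%, 23.5% and 14.3%. In each library this median was lower than that of the windows chosen with the library included, and 1.82 to 2.06 times that of all windows. The excess over all windows ranged from 6.41 to 20.5 percentage points, where the SD over autosomes was 1.02 or less. Between 79.4% and 98.0% of the windows lay above the median of the library that took no part, and between 47.4% and 78.2% above its 90th percentile.

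**Figure D1:**
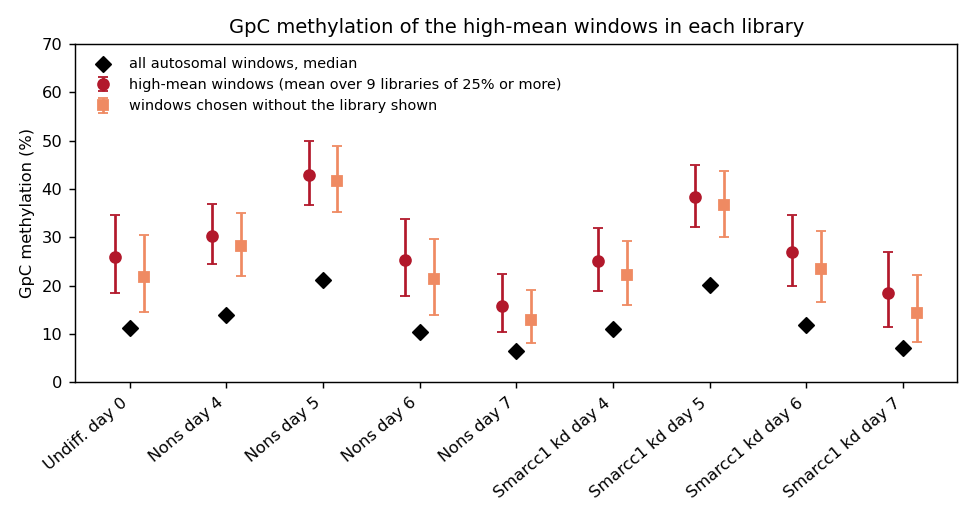
GpC methylation (%, vertical axis) in each of the 9 libraries for the 5356 high-mean windows (circles), for windows chosen without the library shown (squares) and for all autosomal windows (diamonds); points are medians and bars the quartiles. The median of the high-mean windows follows the library level from 15.8% in Nons at day 7 to 43.0% in Nons at day 5, and windows chosen without the library lie at 12.8% and 41.7% there.

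Starts of genes made up most of the set. A gene start (the first base of a GENCODE M21 gene, either protein-coding or for a long non-coding RNA, lncRNA) lay in 3369 high-mean windows (62.9%, Wilson 95% interval 61.6% to 64.2%, counting error over windows only), against 3.76% of all autosomal windows. The share ranged from 57.1% on chromosome 14 to 68.3% on chromosome 5. Protein-coding starts accounted for 3154 windows (58.9%) and lncRNA starts without a protein-coding one for 215 (4.01%). Conversely, 16.8% of the 18779 windows with a protein-coding start were high-mean windows, against 1.99% of those with only a lncRNA start. Where starts lay on both strands of a window the share was 31.6% (761 of 2409 windows). Bidirectional promoters are known to be rich in CpG and active in many tissues.

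The remaining 1987 windows held no gene start. Of these, 862 covered an exon, 372 lay within introns and 753 between genes. A start of some other annotated transcript lay in 520 of them. Their median distance to the nearest gene start was 9350 bp, against 33363 bp for the other windows without a start, and 36.5% lay within 5 kb against 9.94%. In each of the 9 libraries, when it took no part in the choice, windows without a start had a lower median than those with one, for example 20.3% against 22.7% at day 0 and 11.3% against 14.1% in Nons at day 7.

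The highest windows without a gene start and without similarity to mitochondrial DNA were named after their values were seen. One covered untranslated exon sequence of Zbtb7a, a transcriptional repressor gene (chromosome 10, 81136061 to 81138395), with a mean of 54.6% and a range from 10.7% to 81.8%. One covered untranslated exon sequence of Catsperg1 (chromosome 7, 29211085 to 29213400), with a mean of 50.1% and a range from 30.1% to 66.4%. One lay between genes, 18534 bp from Nsd1, a histone methyltransferase gene (chromosome 13, 55189127 to 55191248), with a mean of 46.9%. A coding exon of Ppp2r3d lay in a window with a mean of 44.9%.

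Base composition separated these windows from the rest of the genome, although the rule did not use it. Their median GC content was 52.3% (SD over autosomes 1.45) against 42.5% (0.981). The ratio of observed to expected CpG was 0.566 (0.0294) against 0.172 (0.00756). GpC dinucleotides, which the assay needs, numbered 67.5 per kb against 42.5. The windows were also shorter, 2139 bp against 2783 bp in the median, and fewer of their bases were masked as repeats, 14.8% against 24.8%. High-mean windows without a start lay between, with a median GC content of 49.6% (1.73) and a CpG ratio of 0.350 (0.0311).

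The share of high-mean windows increased with CpG content whether or not a gene started there. At a CpG ratio under 0.2, 0.150% of windows with a start and 0.0574% of those without one belonged to the set. At 0.4 to 0.6 the shares were 20.8% and 4.26%. At 0.8 and over they were 58.8% (542 of 921) and 35.9% (111 of 309). In each of the 5 ranges windows with a start had the larger share.

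**Figure D2:**
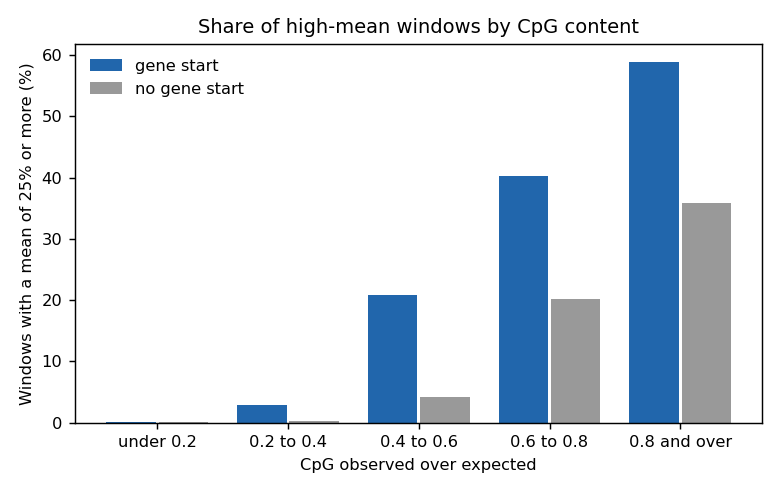
Share of autosomal windows with a 9-library mean of 25% or more (%, vertical axis) by the ratio of observed to expected CpG (horizontal axis), for windows with a gene start (dark bars) and without one (grey bars). The share goes from 0.150% to 58.8% with a start and from 0.0574% to 35.9% without one.

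The high level was mostly confined to the chosen window. Its own value entered the choice and those of its neighbours did not, so the drop and the short runs can partly follow from the rule. The windows immediately before and after a high-mean window with a gene start had median 9-library means of 15.1% and 15.2%, against 28.0% at the window itself, and from the second neighbour on the medians were 13.8% or less, where the median of all autosomal windows was 13.0%. Around high-mean windows without a start the neighbours were at 16.3% and 16.2%. The set fell into 5105 separate runs, of which 4892 (95.8%) were single windows. Only 30 runs held 3 or more windows and the longest held 5.

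**Figure D3:**
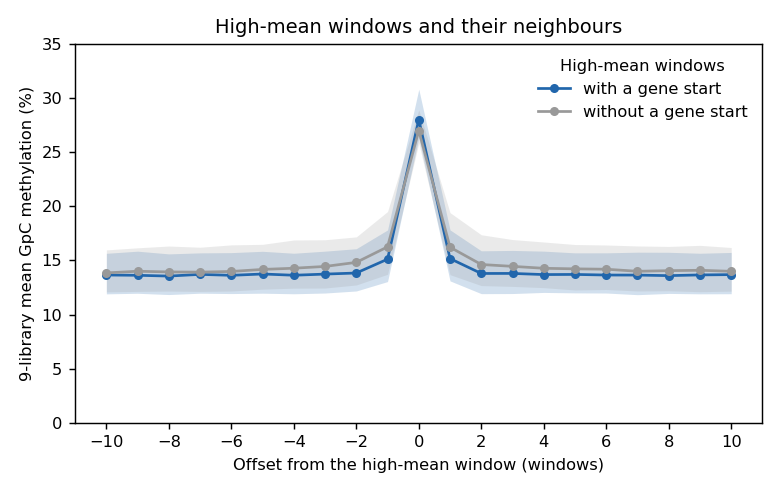
Median 9-library mean GpC methylation (%, vertical axis; shaded, quartiles) at high-mean windows and at their neighbours up to 10 windows to each side (horizontal axis), for windows with and without a gene start. Values of 28.0% and 27.0% at the window give way to between 15.1% and 16.3% at the next window on each side. The value at the window itself entered the choice and those of the neighbours did not.

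One of the pair of longest runs lay in the main histone gene cluster on chromosome 13 (23738750 to 23752334) and held the starts of Hist1h1c, Hist1h3c, Hist1h2bb, Hist1h2ab and Hist1h3b, with a mean of 33.1%. The other lay on chromosome 17 (39839200 to 39851920) and held the lncRNA starts Gm26917, Gm42418 and AY036118, a locus known to contain ribosomal RNA sequence. Ribosomal DNA is present in many copies, and reads of other copies cannot be told apart there. The central window of that run (39844666 to 39846240) had 37.0% in undifferentiated cells. Over days 4 to 7 Nons had 55.8%, 59.96%, 32.1% and 25.4% and the knockdown had 47.5%, 62.0%, 36.9% and 27.5%. The knockdown minus Nons differences were -8.25, 2.03, 4.81 and 2.07 percentage points.

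The 6 windows of highest mean all contained sequence similar to the mitochondrial genome, and none held a gene start. Such nuclear copies are known as numts. The highest, on chromosome 1 (24611052 to 24616190), was similar over 90.6% of its length at 99.9% identity and had a mean of 80.9%, with values from 73.0% to 87.4%. A window in an intron of Myo3a (chromosome 2, 22586470 to 22589921) was similar over 76.3% of its length at 97.4% identity and had a mean of 76.2%. The other 4 had means from 58.4% to 70% and were similar over 7.82% to 22.5% of their length. In the 4 windows of the mitochondrial genome itself, which has no nucleosomes, the library means ran from 73.6% in the knockdown at day 7 to 86.8% in Nons at day 4. Across the autosomes 65 windows had any such similarity at 80% identity or more, and 8 of them were high-mean windows. Of the 7 with 97% identity or more, 5 were in the set. Whether reads of mitochondrial DNA contributed to these windows was not tested. The other 5348 windows had a gene start in 63.0% of cases.

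Known promoter motifs were counted in RefSeq promoters, from 250 bases before to 50 after the start, on both strands. Of 4096 promoters whose start lay in a high-mean window, 72.7% held a GC box, against 35.2% of all 30394. The CCAAT box, bound by NF-Y, was in 43.1% against 37.3%, and the TATA box (TATAAA) in 5.52% against 13.8%. The ETS motif (CCGGAAG) was in 16.1% against 8.98%, the Nrf1 motif in 6.01% against 2.66%, the E-box (CACGTG) in 10.3% against 7.09% and the Yy1 motif (AAGATGG) in 7.01% against 6.41%. The CRE (TGACGTCA), the Banp motif (CTCGCGAG) and the Zfp143 motif (CTACAATTC) were in 3.39%, 2.32% and 0.830% against 1.84%, 0.892% and 0.372%. The octamer (ATGCAAAT), bound by Pou factors, was in 1.66% against 1.75%, and the Ctcf motif in 1.83% against 0.849%.

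GC content differed between these promoters, with medians of 63.3% and 52.7%. Among promoters of 60% to 70% GC, the GC box was in 81.5% of 1733 promoters in high-mean windows and in 72.1% of 4278 others. The CCAAT box was in 45.1% against 32.0%, the ETS motif in 19.7% against 18.6% and the TATA box in 3.23% against 4.09%. The E-box was in 11.2% against 10.9% and the Ctcf motif in 1.90% against 1.61%, which are close. The Nrf1 motif was in 6.87% against 4.75%, the Yy1 motif in 8.19% against 5.94% and the CRE in 3.98% against 3.20%. Banp was at 2.94% against 1.96% and Zfp143 at 0.635% against 0.210%. The octamer was in 1.27% against 0.771%, the reverse of its order without the GC limit. In the central 800 bases of windows without a gene start, the GC box was in 40.7% of high-mean windows against 7.42% of all, the ETS motif in 8.66% against 2.27% and the Ctcf motif in 2.37% (47 windows) against 0.417%. The CCAAT box and the TATA box were less frequent there, in 62.6% against 71.6% and in 32.3% against 52.4%. In the central 800 bases of windows with a gene start the CCAAT box was in 61.6% of high-mean windows against 66.2% of all, the reverse of its order in the shorter promoters, and the TATA box in 25.5% against 40.5%.

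Gene groups differed in how often their starts lay in the set. Of all 20068 protein-coding genes with a start in a used autosomal window, 3575 (17.8%) did so. Some windows named below also hold the start of another gene, such as Lrrc41 with Uqcrh and Prkdc with Mcm4. Their level is not that of the listed gene alone. The largest share of the 18 groups was that of the replication-dependent histones, the packaging proteins made in S phase, with 51 of 67 genes in 39 windows (76.1%). Many of these genes lie close together, share a window and are near-identical copies, so they are not separate cases and single values are uncertain. The window of Hist1h1c had a mean of 44.4%, but 2.33% in Nons at day 7 and 79.2% in the knockdown on that day.

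Genes for splicing, cytosolic translation and protein folding were also more frequent than the 17.8% of all protein-coding genes. Splicing factors had 31 of 63 genes in the set (49.2%), with Hnrnpa2b1 at a mean of 40.9%, which shares its window with the start of Cbx3. Cytosolic ribosomal proteins had 31 of 77 (40.3%), with Rpl27a at 36.9%, Rplp0 at 34.9% and Rps12 at 33.0%. Chaperones had 30 of 76 (39.5%), with Cct7 of the cytosolic chaperonin at 37.8%. Translation factors had 19 of 62 (30.6%), with Eif5b at 39.0% and Eif1 at 38.6%; the list, drawn by symbol, also holds Eif4ebp1, an inhibitor of initiation, at 35.8%. Mitochondrial ribosomal proteins had 20 of 78 (25.6%). The nuclear respiratory chain genes had 16 of 88 (18.2%), near the share of all protein-coding genes, with Uqcrh at 41.0%. Proteasome subunits had 7 of 48 (14.6%), below the share of all protein-coding genes, with Psme2 at 38.9%.

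Genes named Ccn, Cdk, Cdc or Mcm, which include cyclins, their kinases and the replication helicase but also effectors of Cdc42, had 32 of 82 (39.0%), with Cdk13 at 38.9% and Mcm4 at 32.6%. Immediate early genes had 8 of 20 (40%), with Myc at 33.0%, Jund at 31.3% and Egr1 at 31.2%. Zfp genes had 85 of 366 (23.2%), with Zfp367 at 44.8% and Zfp664 at 43.1%. BAF complex subunits had 9 of 28 (32.1%), among them Bicra at 36.0%, Dpf1 at 32.1% and the ATPase gene Smarca4 at 28.0%. Smarcc1 itself was at 25.5%, in a window that also holds the start of Dhx30.

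Pluripotency genes had 7 of 19 in the set (36.8%), namely Utf1 at 35.5%, Sox2 at 34.1%, Klf4 at 32.7%, Tdgf1 at 32.3%, Pou5f1 at 30.8%, Zfp42 at 27.4% and Dppa4 at 25.3%. The window of Pou5f1, which encodes Oct4 (chromosome 17, 35504054 to 35506305), had 23.6% in undifferentiated cells. Over days 4 to 7 Nons had 44.9%, 46.1%, 20.3% and 11.5% and the knockdown had 34.5%, 54.6%, 21.5% and 20.5%. Both day 5 values were the highest of their arm and its lowest percentile within a library was 86.5. The window of Sox2 was 4.55% in Nons at day 6 and 56.2% in the knockdown on that day. On the other days the knockdown was lower there, with differences of -16.4, -2.65 and -13.9 percentage points at days 4, 5 and 7.

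Developmental transcription factors had 22 of 163 genes in the set (13.5%, against 17.8% of all protein-coding genes), with Zic4 at 34.6% and Sox12 at 34.4%. Clustered protocadherins had 1 of 57, Pcdhgc3 at 27.1%. None of 1118 olfactory receptor genes, 322 vomeronasal receptor genes and 52 keratin genes started in a high-mean window. The median CpG ratio of the start windows was 0.572 for histones, 0.610 for ribosomal proteins, 0.112 for olfactory receptors and 0.121 for vomeronasal receptors, against 0.396 for all protein-coding genes. The order of the shares did not follow this ratio throughout, since developmental transcription factors had a ratio of 0.584, above that of the histones, and clustered protocadherins had 0.420. The part of CpG content in the shares was not tested.

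**Figure D4:**
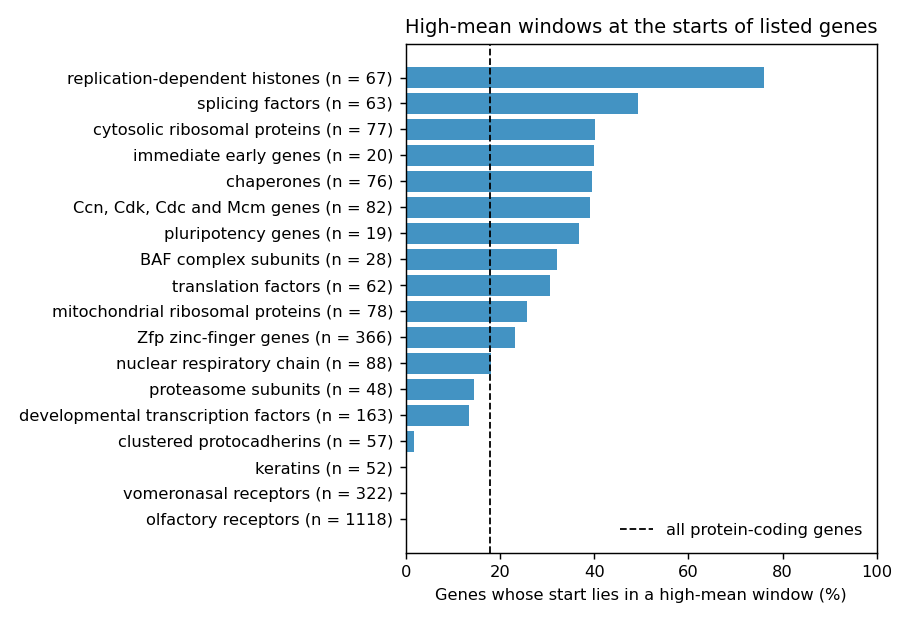
Share of the protein-coding genes of each of 18 lists (vertical axis, number of genes in brackets) whose start lies in a high-mean window (%, horizontal axis); the dashed line is the share of all protein-coding genes. Histone genes are at 76.1%, the line is at 17.8%, and the receptor families and keratins are at 0%.

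The Smarcc1 knockdown was set against Nons at each day. NOMe-seq does not measure RNA, so the loss of Smarcc1 itself was not checked here. At day 4 the median over the high-mean windows was 25% in the knockdown and 30.3% in Nons, and the median paired difference was -5.24 percentage points (SD over autosomes 1.11), against -2.80 over all autosomal windows. At day 5 it was -4.43 points (0.916) against -1.07. At day 6 it was 1.84 points (1.19) against 1.496, and at day 7 it was 2.28 points (0.958) against 0.658. With windows chosen on the 7 libraries not compared, the differences were -5.36, -4.34, 2.26 and 0.993 points at days 4, 5, 6 and 7. Quantile normalization turned the sign at day 5, to 0.222 points, and at day 7, to -1.46, and left -2.29 at day 4.

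A window with a higher level can differ by more percentage points. On the ratio scale, the log2 ratio of knockdown to Nons medians was -0.28 in high-mean windows and -0.33 in all windows at day 4. It was -0.16 against -0.07 at day 5, 0.09 against 0.20 at day 6 and 0.23 against 0.16 at day 7. The compared libraries took part in choosing these windows. With windows chosen on the other 7 libraries, the median was 1.97 times that of all windows in the knockdown and 1.95 times in Nons at day 4. The factors for knockdown and Nons were 1.88 and 1.99 at day 5, 1.92 and 2 at day 6, and 1.83 and 1.84 at day 7. High-mean windows with and without a gene start had median differences of -5.45 and -4.89 points at day 4 and of 2.06 and 2.53 points at day 7. With windows chosen on the 7 libraries not compared and values as deposited, the median difference was set against that of all windows by autosome. It was lower in each of the 19 autosomes at days 4 and 5. At day 6 it was lower in 6 of 19, and at day 7 in 5 of 19. The autosomes of a day share the same pair of libraries, so they are not replicates. These differences are in percentage points, where windows with a higher level can differ by more.

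**Figure D5:**
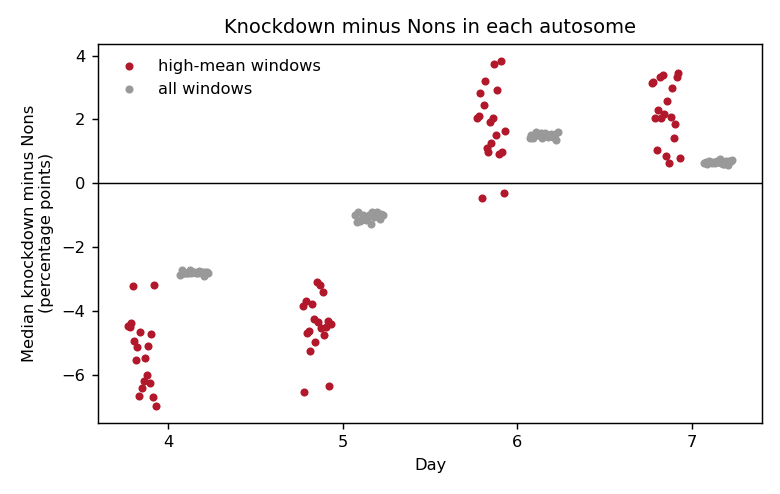
Median knockdown minus Nons difference in GpC methylation (percentage points, vertical axis) in each of the 19 autosomes at days 4 to 7 (horizontal axis), for high-mean windows and for all windows, on the values as deposited. High-mean windows lie between -6.96 and -3.20 at day 4 and between 0.635 and 3.45 at day 7; under quantile normalization the medians over all autosomes change sign at days 5 and 7.

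No knockdown effect shared by days 4 to 7 was detected in any window by limma with day as a block. With 1 library per arm and day, the fit cannot show that effects were absent. At a Benjamini-Hochberg adjusted p under 0.05, 0 of the 5356 windows and 0% of all 829493 windows tested passed, and the smallest adjusted p was 0.995. At an unadjusted p under 0.05, 1016 high-mean windows (18.97%) passed against a background of 4.23%, with 328 higher in the knockdown (background 1.58%) and 688 lower (background 2.65%). When limma allowed the variance to change with the mean level, 254 windows (4.74%) passed against a background of 4.28%, which is close to it, with 70 higher in the knockdown (background 1.68%) and 184 lower (background 2.6%). The same sign on all 4 days was seen in 214 windows with the knockdown higher (4.00%, background 4.95%) and in 445 with it lower (8.31%, background 6.82%).

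The windows with the largest mean differences of 1 sign were chosen for them and are given without a test. At the start of Zfp367 on chromosome 13 the knockdown was lower on each day, with differences of -53.9, -5.52, -19.7 and -72.1 percentage points at days 4, 5, 6 and 7. In an intron of Shb the mean difference was -28.1 points. The knockdown was higher at the starts of Pfn2, an actin-binding protein gene, and Pcsk2, a prohormone convertase gene, and in untranslated exon sequence of Nr4a2, with mean differences of 24.2, 24.1 and 23.0 points. The Pfn2 window was at 38.4%, 69.6%, 52.3% and 25% in the knockdown and at 34.2%, 16.7%, 25.5% and 12.1% in Nons.

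The spread of single windows between libraries comes from the values that chose them and is a description. After each library was centred on its autosomal median, the median SD over the 9 libraries was 10.5 percentage points, beside a median level of 27.6%. Over all autosomal windows it was 5.47 points, beside a median level of 13.0%. The correlation between libraries over the high-mean windows was 0.006 in the median (-0.052 to 0.127). Over all autosomal windows it was 0.115 (0.080 to 0.184). The order of single means within the set is likewise a description. The smallest SD was 2.63 points, in a window between genes near Aurkb on chromosome 11, with values from 17.9% to 35.4%. The largest was 29.5 points at the start of Cdc42bpa on chromosome 1, which was at 100% in Nons at day 6 and at 0% in Nons at day 7.

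The threshold fell within a continuous distribution. There were 1681 windows with means of 24% to 25%, of which 48.2% held a gene start, and 1253 with means of 25% to 26%, of which 52.7% did. The 3 windows just above the threshold, at Timm13 and near Gm12862 and Gng2, and the 3 just below it, at Aldh9a1, Adamtsl4 and Mapt, had means of 25.0002% to 25.0013% and of 24.9991% to 24.9996%. The share with a gene start was 61.1% between 26% and 30%, and 75.9% both between 30% and 40% and in the 83 windows at 40% or more.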

How the data were processed

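GpC methylation was measured by NOMe-seq in 9 libraries. Upstream, the authors used trim_galore for adapters and bismark for alignment to an mm10 genome masked at FVB and CAST variants, then called methylation with bismark_methylation_extractor and coverage2cytosine in NOMe-seq mode, and averaged calls in Seqmonk. As deposited, each value is the percent of methylated GpC calls in consecutive windows of 200 read positions, per the labels. The values were not normalized between libraries, so methyltransferase activity or bisulfite conversion can shift a whole library, and enzyme access needs GpC sites. Depth per window is unknown, so no interval or floor was computed for a level.

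Groups came from sample titles. Members and lists were chosen with earlier results of these data known. Sequence and composition came from GRCm38.p6 and genes from GENCODE M21. Mitochondrial similarity was found with blastn 2.17.0 at 80% identity or more. Levels are medians over windows, with the SD over 19 autosomes as spread, which holds no variation between libraries. The shared knockdown effect was fitted with limma 3.58.1 (R 4.3.3) over 829493 windows of chromosomes 1 to 19 and X. Day was a block, with Benjamini-Hochberg adjustment at 0.05. A run on simulated data used noise at a fraction of each window's SD between libraries. Its shift was far larger than the median differences seen here. It checked the code and not the power to detect differences of that size. Named windows were the 8 protein-coding starts and 5 windows without a start of highest mean, the 8 starts of highest lowest percentile, the 3 on each side of the threshold, up to 3 per gene list, the 3 largest differences of 1 sign on all days in each direction, the 3 smallest and 3 largest SDs, and those similar to mitochondrial DNA. Some windows that this rule names are not reported here. Alternatives were other summaries, thresholds, normalizations, window filters and models, and leaving out libraries or days.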

Additional observations from a re-analysis of the deposited data

Results flagged for a closer look

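The median knockdown minus Nons difference over the high-mean windows had opposite signs early and late, at -5.24 and -4.43 percentage points at days 4 and 5 and 1.84 and 2.28 points at days 6 and 7. There was 1 library per arm and day, and the difference between days was not tested. Over all autosomal windows the signs were the same, at -2.80, -1.07, 1.496 and 0.658 points.

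Data outside the autosomal comparison also held high levels. On the X chromosome 206 of 42960 windows (0.480%) had a 9-library mean of 25% or more, and 56.3% of them held a gene start, against 62.9% of the autosomal high-mean windows. The 4 windows of the mitochondrial genome had a mean of 80.8% over the 9 libraries.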

How the results depend on the processing

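The number of high-mean windows was 22089 at a threshold of 20% and 1369 at 30%, and ranged from 3410 to 7785 when 1 library was left out of the mean. Without both day 5 libraries, a choice made after seeing the data, it was 2300. Without Nons at day 5 alone it was 3410. The share with a gene start was 38.2% and 75.9% at the thresholds of 20% and 30%, 57.1% by the median over libraries, 59.0% by a window centre within 1 kb of a start (2.94% of all windows), and 56.3% to 65.2% without 1 library. It was 68.7% without both day 5 libraries and 56.9% for as many windows ranked by mean percentile within library, also added later, which shared 3733 windows (69.7%) with the set. The median GC content was 48.9%, 55.1%, 54.2% and 50.6% at 20%, at 30%, without the day 5 libraries and by percentile. Centring the libraries left the set as it was, and quantile normalization kept 5028 of its windows.

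The knockdown difference over the windows at day 4 was -2.40 points after centring and -2.29 after quantile normalization. At day 5 it was -3.42 and 0.222, at day 6 it was 0.277 after centring, and at day 7 it was -1.46 after quantile normalization and 0.993 with windows chosen on the other 7 libraries. Both methods remove a shift shared by a library. With limma, 0 windows passed the adjusted threshold as reported and under each of the 9 alternatives. At an unadjusted p under 0.05, 458 windows (8.55%, background 0.714%) passed without the day block and 958 to 1247 (17.9% to 23.3%, background 3.91% to 4.61%) with 1 day left out. The level in a library that took no part exceeded that of all windows by 11.004 points in the median over libraries, and by 10.9 to 11.7 points under the alternatives. The same-numbered replicates were not used as a pairing, since each group had 1 library. Single windows rest on unknown depth, which limits every value of 1 window.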

Other observations

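Chromosomes differed in how many of their windows belonged to the set. Chromosome 11 had the largest share, 471 of 43703 windows (1.08%), followed by chromosome 7 with 0.962% and chromosome 19 with 0.948%. Chromosome 18 had the smallest, 140 of 28446 (0.492%), and chromosome 1 was next with 0.507%. The share of windows with a gene start was 4.31% on chromosome 11, 5.58% on chromosome 7 and 2.74% on chromosome 18.

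Genes of small RNAs accounted for few of the windows without a protein-coding or lncRNA start. Starts of snRNA genes, whose products form the spliceosome, lay in 14 high-mean windows, snoRNA genes in 8 and miRNA genes in 21, which was 1.16%, 0.710% and 1.31% of the windows of each kind, against 0.262% of all windows without a gene start. Runs of 4 windows lay at Crlf2 on chromosome 5, with a mean of 36.4%, and at Rhof on the same chromosome, with a mean of 29.5%.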
